A study of Homo sapiens with 12 samples.

Results

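The genes described here are interferon-stimulated antiviral effectors, a list of 42 genes chosen by symbol for their known role. Of these, 39 had an array probe assigned to that gene alone, among 18106 genes tested, and IFITM2, ISG15 and CMPK2 were not analysed here. They were measured in T-HESC, an established human line of endometrial stroma made immortal with telomerase, on 12 single-colour CodeLink whole-genome arrays. Cells from passages 13, 28 and 15 (replicates 1, 2 and 3 of every group) were kept without serum for 24 h and then received vehicle, TNFα (5 ng/ml), IL1β (1 ng/ml) or the 2 together at the same doses. RNA was taken after 48 h, from 3 arrays per group. All groups therefore share 1 established line, the serum-free culture and puromycin in the medium, and the replicates are passages of that line and not cells of separate donors. The design asks which of these genes differed with TNFα, which with IL1β, and which with the combination.

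Type I interferons bind a receptor whose kinases start a signal to the nucleus, where a complex that contains IRF9 binds the interferon-stimulated response element (ISRE) in the promoters of antiviral genes. The products block viruses at successive steps, from entry and uncoating to translation, replication and budding. TNFα and IL1β both activate NF-κB, and in several cell types TNFα is also known to start a slow, low output of interferon-stimulated genes. In the endometrium these genes are known from the response of the stroma to interferon in early pregnancy.

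The promoters of 32 of the 39 measured genes were in the RefSeq promoter table (GRCh38.p14), which holds 250 bases before to 50 bases after each annotated start. The ISRE core searched was GAAA, then 2 bases of any kind, then GAAA, on either strand, and it stood in the window of 25 of these 32 genes (78.1%), against 1195 of 27305 genes with a window in the table (4.38%). The runs shown are those of the 5 genes that passed the test in any comparison, of MX1, and of IFIT1 and IFIT3, which hold the same core and did not pass. Each is written 5′ to 3′ on the strand of its gene, upstream of the start, and the capitals mark the ISRE cores, read on either strand.
BST2, chr19:17405725-17405780, minus strand: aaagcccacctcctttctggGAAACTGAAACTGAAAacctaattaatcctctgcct
IFI27, chr14:94110608-94110670, plus strand: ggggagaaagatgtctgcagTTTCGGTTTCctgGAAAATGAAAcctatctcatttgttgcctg
EPSTI1, chr13:42992262-42992311, minus strand: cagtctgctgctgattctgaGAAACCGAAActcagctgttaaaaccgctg
IFI44L, chr1:78620264-78620404, plus strand: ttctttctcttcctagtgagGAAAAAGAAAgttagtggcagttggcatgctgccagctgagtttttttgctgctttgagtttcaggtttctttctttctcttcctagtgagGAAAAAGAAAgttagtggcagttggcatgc
ISG20, chr15:88638927-88638976, plus strand: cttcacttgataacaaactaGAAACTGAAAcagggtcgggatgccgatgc
MX1, chr21:41431834-41431883, plus strand: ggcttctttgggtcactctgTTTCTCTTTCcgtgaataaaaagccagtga
IFIT1, chr10:89392487-89392549, plus strand: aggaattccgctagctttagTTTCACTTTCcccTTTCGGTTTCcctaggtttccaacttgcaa
IFIT3, chr10:89327821-89327904, plus strand: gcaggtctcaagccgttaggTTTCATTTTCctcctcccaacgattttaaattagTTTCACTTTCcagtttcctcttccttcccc

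The 2 cores of the BST2 run overlap, with first bases at −130 and −124 from the start site. The 2 cores of the IFI27 run face each other on opposite strands at −108 and −95. The 2 cores of the IFI44L run lie in copies of the same stretch, 91 bases apart. The copies match over 50 bases and reach the ends of the run shown, so they may extend further. In BST2, IFI27, EPSTI1 and MX1 an ISRE core is also joined to a gamma-activated site, TTCNNNGAA, an element known from genes that respond to interferon-γ, so that the last 3 letters of that site are the first 3 of the core. This joined form, looked for after the data had been seen, stood in 5 of the 32 windows (15.6%; IFITM1 is the fifth) and in 20 of all 27305 genes (0.0732%). The gamma-activated site by itself stood in 10 of 32 windows (31.2%, against 9.38% of all genes), and a κB-like motif (GGG, then 3 bases of any kind, then TTCC, on either strand) in 4 (12.5%, against 7.83%), those of BST2, OAS3, MX1 and IFIH1. A match describes letters and does not show that a factor binds there.

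Levels are given on the log2 scale of the deposited intensity, where 0 corresponds to an intensity of 1, close to the median of an array. Changes are differences of group means with standard errors from limma over all 12 arrays, and "called" means an adjusted p under 0.05 after Benjamini-Hochberg adjustment over 53671 probes. The main effect of a cytokine averages its effect without and with the other one, as 6 arrays against 6. The comparisons with vehicle share the 3 vehicle arrays and are not independent of each other. No member value was missing in 468, and 2 genes, OASL and DTX3L, averaged below the median probe. Vehicle replicate 3, TNFα replicate 3 and IL1β replicate 2 lay apart from the other 9 arrays on the first principal component of all probes (22.6% of the variance). Their values there were 171, 68.7 and 53. The calls made in this list and its median main effect of TNFα are given with and without these arrays. Vehicle replicate 1 lay furthest on the other side, at −84.8, and was left out only by itself. Of 8 stromal markers in vehicle, COL1A1, COL1A2, THY1, COL3A1, PDGFRB and NT5E averaged 3.04 to 9.28, while ENG (0.77) and MME (0.74) lay near the median of an array. Of 6 leukocyte markers, PTPRC and CD14 lay below 1 in intensity on every array, and CD68, ITGAX, CD3E and NCAM1 averaged 2.05, 1.48, 0.71 and −0.07 in vehicle. Of 4 markers of plasmacytoid dendritic cells, CLEC4C and IL3RA lay below 1 on every array, and TCF4 and LILRA4 averaged 6.39 and −0.83. The endothelial markers PECAM1, VWF, CDH5 and KDR averaged 3.57, −0.68, −0.64 and −3.70 in vehicle.

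**Figure D1:**
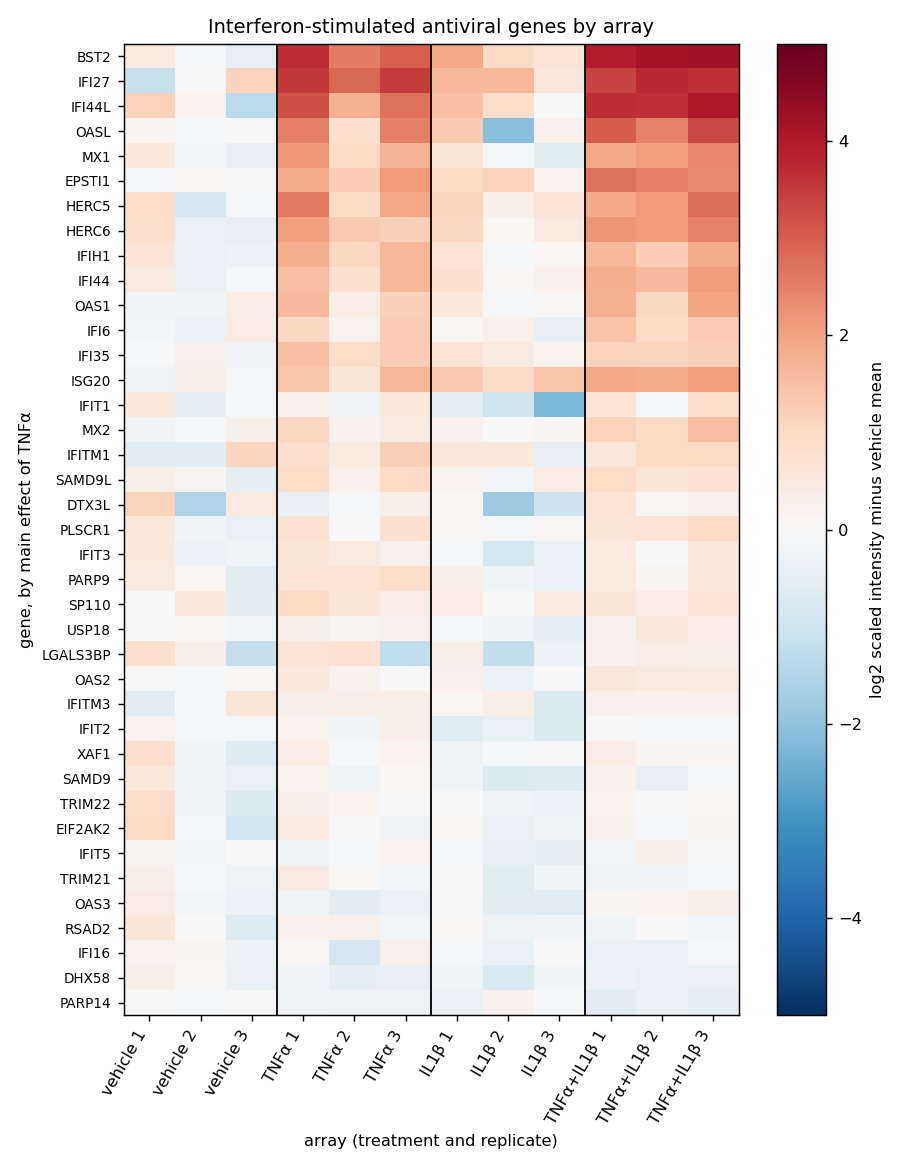
Log2 scaled intensity of each of the 39 genes on each of the 12 arrays, shown as the difference from that gene's vehicle mean, with genes ordered by the main effect of TNFα. Rows from BST2 to ISG20 are red on the TNFα and TNFα+IL1β arrays, most rows below IFIT3 are pale, and the IL1β arrays are pale for most genes.

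With TNFα present, part of the list was higher and the rest moved little. Over the 39 genes the median main effect of TNFα was 0.60 against 0.02 over all genes, 36 genes had a positive value (92.3%, against 53.7% of all genes), and 12 exceeded 1 on the log2 scale, a doubling (all genes 1.48%). Called were 3 genes, BST2, IFI27 and EPSTI1, all higher, where 0.127% of all genes were called higher, and none was called lower (0.0221%). At an unadjusted p under 0.05 the limma model gave 25 genes higher and 1 lower, with 7.03% of all genes in either direction. The lower gene was PARP14, whose dimmer probe went the other way (0.76 ± 0.22). The 6 arrays with TNFα lay wholly above the 6 without it for 9 genes, BST2, MX1, USP18, HERC6, IFIH1, IFI27, IFI44L, IFI35 and EPSTI1 (all genes 0.619%), and wholly below for none (0.166%). Without the 3 arrays that lay apart, the list's median main effect of TNFα was 0.42 against −0.02 over all genes.

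For IL1β the values were smaller. Its main effect had a median of 0.08 against −0.11 over all genes (0.198 against −0.0039 after quantile normalization), and the list's median ran from 0.011 without vehicle replicate 3 to 0.151 without vehicle replicate 1. For this effect no gene was called in either direction (all genes 0.0221% higher and 0% lower), and the limma model gave 6 genes higher and 1 lower at an unadjusted p under 0.05, with 11.2% of all genes in either direction. The genes higher were BST2, HERC6, ISG20, IFI27, IFI44L and EPSTI1, and the lower one was IFIT2. For no gene did the 6 arrays with IL1β lie wholly above the 6 without it (all genes 0.215%) or wholly below (1.6%).

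By the rule that a gene follows a cytokine where only the main effect of that cytokine is called, 3 genes followed TNFα, none followed IL1β, none followed both, and 36 followed neither. The difference between the cytokines was tested by TNFα against IL1β, which equals the difference of their main effects. No gene was called there (0% of all genes in either direction), although 36 of 39 values were above 0 (92.3%, against 69% of all genes) and the limma model gave 18 genes higher and 0 lower at an unadjusted p under 0.05 (4.53% of all genes). The list had a median of 0.58 against 0.13 over all genes. ISG20, PARP14 and IFI16 were the 3 genes with a value below 0, and the dimmer PARP14 probe gave 0.47 ± 0.31. The TNFα arrays lay wholly above the IL1β arrays for 14 genes (all genes 13.1%) and wholly below for none (2.55%).

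**Figure D2:**
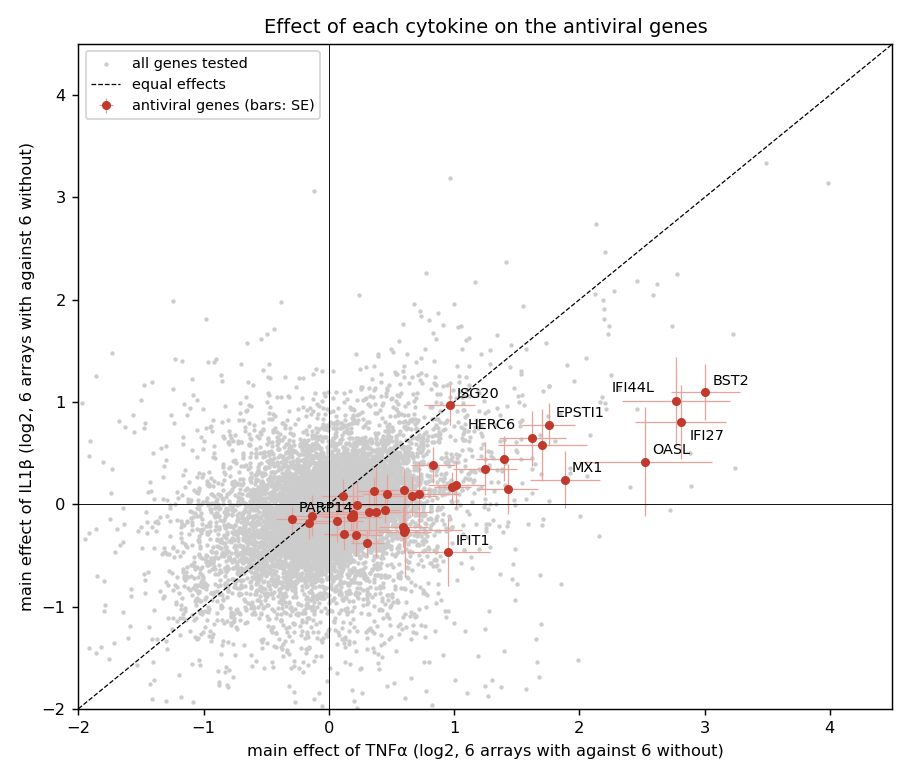
Main effect of TNFα (horizontal) against main effect of IL1β (vertical), both in log2 units, for the antiviral genes (red, bars are standard errors from limma) and all genes tested (grey; 45 lie outside the axes). BST2, IFI27 and IFI44L lie far to the right and well below the dashed line of equal effects, ISG20 lies on that line at 0.96 and 0.97, and IFIT1 lies below the horizontal zero line.

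Among the genes that act at membranes, BST2 rose with TNFα. BST2 encodes tetherin, which holds budding enveloped viruses at the cell surface. On the vehicle arrays of replicates 1, 2 and 3 BST2 read −0.23, −0.79 and −1.11, on the TNFα arrays 2.99, 1.86 and 2.30, on the IL1β arrays 1.23, 0.26 and −0.08, and on the TNFα+IL1β arrays 3.23, 3.45 and 3.50. Every TNFα array lay above every IL1β array, and every IL1β array above every vehicle array. The change from vehicle was 3.09 ± 0.39 with TNFα (8.52-fold, limma adjusted p = 0.0353), 1.18 ± 0.39 with IL1β (adjusted p = 0.433) and 4.10 ± 0.39 with both (17.2-fold, adjusted p = 0.0047). As a main effect TNFα gave 3.00 ± 0.28 (8.02-fold, limma adjusted p = 0.00348) and that of IL1β 1.10 ± 0.28 (adjusted p = 0.328). The difference of TNFα from IL1β was 1.91 (95% interval 1.04 to 2.77), with a limma adjusted p of 0.713. The main effect of TNFα was called without any 1 of the 12 arrays (adjusted p 0.004 to 0.0181) but not without the 3 arrays that lay apart (2.87, adjusted p = 0.122), and the change with both had an adjusted p of 0.052 without those 3. The call for TNFα by itself was lost in 9 of 12 omissions (adjusted p 0.0526 to 0.104), those of each vehicle array, TNFα replicates 1 and 3, IL1β replicate 2 and each TNFα+IL1β array.

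IFITM1 and IFITM3, which hinder the fusion of entering viruses with membranes of the cell, differed less. TNFα had a main effect of 0.72 ± 0.31 for IFITM1 and 0.32 ± 0.23 for IFITM3, and neither was called (limma adjusted p = 0.641 and 0.832). In vehicle IFITM1 spread from 5.60 to 7.23 over the 3 arrays, which is wider than this change. Its other probe gave 0.74 ± 0.22.

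The IFIT proteins bind foreign RNA and stop its translation, and EIF2AK2 encodes PKR, the kinase that halts translation when double-stranded RNA is present. None of these 5 genes was called in any comparison, and TNFα by itself left their median at 0.11. With IL1β none of the 5 values lay above vehicle, where 32.7% of all genes did. Their median was −0.43 against −0.15 over all genes. All 5 also lay below vehicle after quantile normalization, with a median of −0.235 against −0.0164 over all genes. The share of all genes below vehicle is not given for that scaling. IFIT1, shown with its paired ISRE cores above, read 3.46, 2.47 and 2.91 in vehicle, 3.17, 2.71 and 3.46 with TNFα, 2.49, 1.93 and 0.65 with IL1β, and 3.60, 2.86 and 3.84 with both. Its value with IL1β was −1.26 ± 0.47 from vehicle (limma adjusted p = 0.455), and the groups overlapped at 2.49 against 2.47. An interaction of the cytokines with an unadjusted limma p under 0.05 was found in 2 of the 39 genes, IFIT1 and OAS3. Their values were 1.58 ± 0.67 and 0.89 ± 0.33, and 2.88% of all genes reached this p in either direction. No gene of the list passed the adjusted test of that interaction (0% of all genes).

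IFIT2 read 0.45, 0.23 and 0.19 in vehicle, 0.47, 0.12 and 0.61 with TNFα, −0.33, −0.10 and −0.43 with IL1β, and 0.26, 0.21 and 0.19 with both. It was the 1 gene of the list whose IL1β arrays all lay below all vehicle arrays, a pattern found in 8.73% of all genes. The difference was −0.58 ± 0.19 (limma adjusted p = 0.432). IFIT3 read 5.16, 4.34 and 4.40 in vehicle, 5.25, 5.10 and 4.87 with TNFα, 4.58, 3.74 and 4.28 with IL1β, and 5.12, 4.62 and 5.18 with both. Its TNFα and IL1β arrays did not overlap, and its main effect of TNFα was 0.60 ± 0.21 (limma adjusted p = 0.523). The 4 IFIT genes are neighbours on chromosome 10, between 89302046 and 89420997 (GRCh38.p14).

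The OAS enzymes make the short oligoadenylates that activate RNase L, which degrades viral RNA. OAS1 read 0.79, 0.75 and 1.32 in vehicle, 2.59, 1.33 and 2.16 with TNFα, 1.50, 0.86 and 1.02 with IL1β, and 2.72, 2.00 and 2.92 with both. All arrays with TNFα lay above all vehicle arrays, and TNFα replicate 2 lay below IL1β replicate 1. For OAS1 the main effect of TNFα was 1.25 ± 0.26 (2.37-fold, limma adjusted p = 0.186). OASL, which enhances RIG-I signalling and lacks the synthetase activity, had the largest main effect of the family, 2.53 ± 0.53 (adjusted p = 0.196), on a probe below the array median in most groups. OAS2 and OAS3, which adjoin OAS1 on chromosome 12, had main effects of 0.36 ± 0.14 and 0.11 ± 0.17. The other OAS2 probe, far below the array median, went the opposite way (−1.31 ± 0.84, limma adjusted p = 0.803).

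MX1 and MX2 encode dynamin-like GTPases that trap viral nucleocapsids, and they adjoin each other on chromosome 21. MX1 read 2.94, 2.29 and 2.00 in vehicle, 4.56, 3.39 and 4.12 with TNFα, 3.02, 2.33 and 1.79 with IL1β, and 4.31, 4.47 and 4.83 with both. The lowest array with TNFα exceeded the highest without it, and the IL1β values covered those of vehicle. For MX1 the main effect of TNFα was 1.88 ± 0.28 (3.69-fold, limma adjusted p = 0.0573), short of the threshold, and that of IL1β 0.24 ± 0.28. MX2 read 0.66, 0.73 and 1.11 in vehicle, 1.86, 1.07 and 1.27 with TNFα, 1.05, 0.84 and 0.95 with IL1β, and 2.00, 1.78 and 2.37 with both. The MX2 values with both cytokines lay above all vehicle and IL1β arrays (change from vehicle 1.21 ± 0.25, limma adjusted p = 0.111).

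USP18, HERC5 and HERC6 belong to the conjugation of ISG15, a ubiquitin-like modifier. HERC5 is its main ligase in human cells, HERC6 is a close relative, and USP18 removes ISG15 and restrains interferon receptor signalling. HERC6 read 3.53, 2.37 and 2.32 in vehicle, 4.80, 4.03 and 3.92 with TNFα, 3.76, 2.84 and 3.21 with IL1β, and 4.96, 4.86 and 5.20 with both. All arrays with TNFα lay above all without it. The change with both was 2.27 ± 0.38 (4.81-fold, limma adjusted p = 0.0501) and was called with the passage as a block. The other HERC6 probe lay near the array median and gave a main effect of 0.10 ± 0.19. HERC5, next to HERC6 on chromosome 4, had a main effect of TNFα of 1.70 ± 0.35 (adjusted p = 0.191), and USP18 of 0.45 ± 0.13 (adjusted p = 0.401).

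IFIH1 encodes MDA5, a sensor of long double-stranded RNA, and DHX58 encodes LGP2, its regulator. IFIH1 read 1.94, 0.91 and 0.98 in vehicle, 3.09, 2.30 and 2.93 with TNFα, 1.91, 1.20 and 1.37 with IL1β, and 2.92, 2.50 and 3.15 with both. Here too the groups with and without TNFα did not overlap. The main effect was 1.43 ± 0.24 (2.70-fold, limma adjusted p = 0.0903) and 0.0473 with the passage as a block. The other IFIH1 probe, far below the array median, went the opposite way (−1.33 ± 0.43, adjusted p = 0.464). DHX58 read 4.15, 3.92 and 3.51 in vehicle, 3.66, 3.37 and 3.47 with TNFα, 3.65, 3.09 and 3.68 with IL1β, and 3.57, 3.49 and 3.50 with both. Its groups overlapped and its main effects were −0.16 ± 0.16 for TNFα and −0.18 ± 0.16 for IL1β.

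ISG20 is a 3′ exonuclease that degrades viral RNA, and of the 5 genes called anywhere it was the 1 with near-equal values for the cytokines. It read 0.04, 0.61 and 0.23 in vehicle, 1.70, 0.89 and 1.96 with TNFα, 1.62, 1.26 and 1.68 with IL1β, and 2.20, 2.14 and 2.35 with both. All treated arrays lay above all vehicle arrays, and the IL1β arrays lay within the range of the TNFα arrays. ISG20 rose with both cytokines, by 1.93 ± 0.28 (3.82-fold, limma adjusted p = 0.0284). The changes of 1.22 ± 0.28 with TNFα and 1.23 ± 0.28 with IL1β were not called (limma adjusted p = 0.299 and 0.366), and their difference was −0.01 (95% interval −0.64 to 0.62). The call with both was lost without vehicle replicate 1 or 3, IL1β replicate 1 or 3 or any TNFα+IL1β array (adjusted p 0.0504 to 0.122), without the 3 arrays that lay apart (0.0643) and with the passage as a block (0.0658). RSAD2, which encodes viperin and blocks viral replication, had a main effect of TNFα of 0.07 ± 0.20, and its other probe gave −0.12 ± 0.21.

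PARP9 and DTX3L form a complex that modifies histones and viral proteins, and PARP14 is a neighbouring mono-ADP-ribosyltransferase on chromosome 3. PARP9 read 3.47, 3.09 and 2.47 in vehicle, 3.65, 3.71 and 3.90 with TNFα, 3.35, 2.78 and 2.68 with IL1β, and 3.48, 3.14 and 3.53 with both. TNFα by itself lay above vehicle on every array, whereas the arrays with both cytokines overlapped vehicle. PARP14 read 6.90, 6.85 and 6.94 in vehicle, 6.64, 6.72 and 6.71 with TNFα, 6.58, 7.10 and 6.85 with IL1β, and 6.38, 6.55 and 6.43 with both. It was the 1 gene of the list below vehicle on all TNFα arrays (all genes 5.13%) and on all TNFα+IL1β arrays (all genes 13%), by −0.21 ± 0.17 and −0.44 ± 0.17 (limma adjusted p = 0.885 and 0.321). A dimmer PARP14 probe went the other way, from a mean of 1.66 in vehicle to 2.71 with both (1.05 ± 0.31, adjusted p = 0.215), so no direction can be given for this gene. DTX3L, on a dim probe, had a main effect of TNFα of 0.61 ± 0.45.

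SAMD9 and SAMD9L restrict poxviruses and slow translation, and they lie side by side on chromosome 7. SAMD9L read 3.43, 3.29 and 2.67 in vehicle, 4.05, 3.39 and 4.12 with TNFα, 3.29, 2.99 and 3.54 with IL1β, and 4.04, 3.74 and 3.86 with both. SAMD9 read 4.99, 4.19 and 4.04 in vehicle, 4.57, 4.16 and 4.52 with TNFα, 4.23, 3.71 and 3.75 with IL1β, and 4.64, 3.98 and 4.34 with both. SAMD9L was higher than all vehicle arrays on all arrays with both cytokines, and SAMD9 overlapped throughout. The main effects of TNFα were 0.67 ± 0.19 and 0.22 ± 0.21 (limma adjusted p = 0.426 and 0.897).

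IFI27, a small protein of mitochondrial and nuclear membranes that is widely used as a marker of interferon exposure, rose. It read 1.64, 2.70 and 3.87 in vehicle, 6.29, 5.59 and 6.23 with TNFα, 4.41, 4.39 and 3.31 with IL1β, and 6.13, 6.52 and 6.41 with both. All arrays with TNFα lay more than 1 log2 unit above all arrays without it, and the IL1β arrays overlapped vehicle. The main effect of TNFα was 2.81 ± 0.36 (7.0-fold, limma adjusted p = 0.0255) and that of IL1β 0.81 ± 0.36 (adjusted p = 0.438). The change from vehicle was 3.30 ± 0.51 with TNFα (limma adjusted p = 0.0827) and 3.61 ± 0.51 with both (12.3-fold, adjusted p = 0.0252). TNFα differed from IL1β by 2.00 (95% interval 0.86 to 3.14; limma adjusted p = 0.913). The other IFI27 probe was called for TNFα against vehicle as well (3.36 ± 0.41, adjusted p = 0.0271), and its main effect of TNFα was 3.00 ± 0.29 (adjusted p = 0.00392). On the brighter probe the main effect was called in 3 of 12 omissions, those of vehicle replicates 1 and 3 and TNFα replicate 2, and otherwise gave adjusted p 0.0573 to 0.104. It was not called without the 3 arrays that lay apart (3.13, adjusted p = 0.0909) or with the passage as a block (0.0775), and the change with both gave 0.0398 and 0.0711 there. That change also lost its call without vehicle replicate 2 or any TNFα+IL1β array (0.0663 to 0.116). IFI6, a relative in the membrane of the endoplasmic reticulum, had a main effect of TNFα of 1.02 ± 0.23 (adjusted p = 0.245).

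IFI44L and IFI44, neighbours on chromosome 1, are antiviral proteins induced by interferon. IFI44L read 0.49, −0.51 and −2.0 in vehicle, 2.50, 1.12 and 2.03 with TNFα, 0.83, 0.21 and −0.70 with IL1β, and 3.01, 2.96 and 3.35 with both. The arrays with TNFα lay above all those without it, while the vehicle arrays spread over more than 2 log2 units, with replicate 3, an array that lay apart, as the lowest. IFI44L rose with both cytokines, by 3.78 ± 0.61 (13.7-fold, limma adjusted p = 0.0447). The main effect of TNFα, 2.77 ± 0.43, was not called (adjusted p = 0.0689). The call with both stood in 1 of 12 omissions, that of vehicle replicate 1 (otherwise adjusted p 0.0507 to 0.163), and was lost without the 3 arrays that lay apart (3.12, adjusted p = 0.0776) and with the passage as a block (0.0508). IFI44 had a change of 1.84 ± 0.31 with both (limma adjusted p = 0.0533) and a main effect of TNFα of 1.40 ± 0.22 (adjusted p = 0.0731), and both were called with the passage as a block.

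SP110, a nuclear body protein, TRIM21, an intracellular antibody receptor, TRIM22, a restriction factor, and IFI16, a DNA sensor, stayed uncalled. SP110 read 1.82, 2.32 and 1.23 in vehicle, 2.76, 2.40 and 2.15 with TNFα, 2.19, 1.78 and 2.25 with IL1β, and 2.40, 2.22 and 2.44 with both. TRIM21 read 3.43, 3.07 and 2.87 in vehicle, 3.56, 3.20 and 3.00 with TNFα, 3.10, 2.52 and 2.91 with IL1β, and 2.88, 2.93 and 3.06 with both. Their groups overlapped in every comparison with vehicle. The main effects of TNFα over the 4 genes ran from −0.13 to 0.46.

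EPSTI1, named for its induction in epithelial cells beside stroma and later found among interferon-stimulated genes, rose. It read 1.60, 1.77 and 1.67 in vehicle, 3.53, 2.90 and 3.81 with TNFα, 2.64, 2.82 and 1.84 with IL1β, and 4.43, 4.18 and 4.03 with both. The 4 groups did not overlap with each other anywhere, in the order vehicle, IL1β, TNFα, both. The change from vehicle was 1.73 ± 0.30 with TNFα (limma adjusted p = 0.127), 0.75 ± 0.30 with IL1β (0.475) and 2.53 ± 0.30 with both (5.79-fold, 0.00992). TNFα had a main effect of 1.76 ± 0.21 (3.38-fold, limma adjusted p = 0.0181) and that of IL1β 0.78 ± 0.21 (adjusted p = 0.33), and TNFα differed from IL1β by 0.98 (95% interval 0.31 to 1.65; adjusted p = 0.913). The main effect lost its call without vehicle replicate 2, TNFα replicate 1 or any TNFα+IL1β array (adjusted p 0.0516 to 0.0799), without the 3 arrays that lay apart (1.75, 0.122) and with the passage as a block (0.0606). The change with both lost it without TNFα+IL1β replicate 2 (0.0586) and without the 3 arrays (0.0514).

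Of the remaining genes, IFI35, a leucine zipper protein that binds the regulator NMI, had a main effect of TNFα of 0.99 ± 0.15 (1.98-fold, limma adjusted p = 0.0606). PLSCR1, a scramblase with antiviral activity, had 0.60 ± 0.21 and XAF1, a pro-apoptotic protein, 0.22 ± 0.23, neither called. LGALS3BP, a secreted glycoprotein, read 6.83, 6.36 and 4.85 in vehicle, 6.67, 6.73 and 4.79 with TNFα, 6.31, 4.81 and 5.73 with IL1β, and 6.22, 6.36 and 6.34 with both. Its 3 lowest values were those of the 3 arrays that lay apart.

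**Figure D3:**
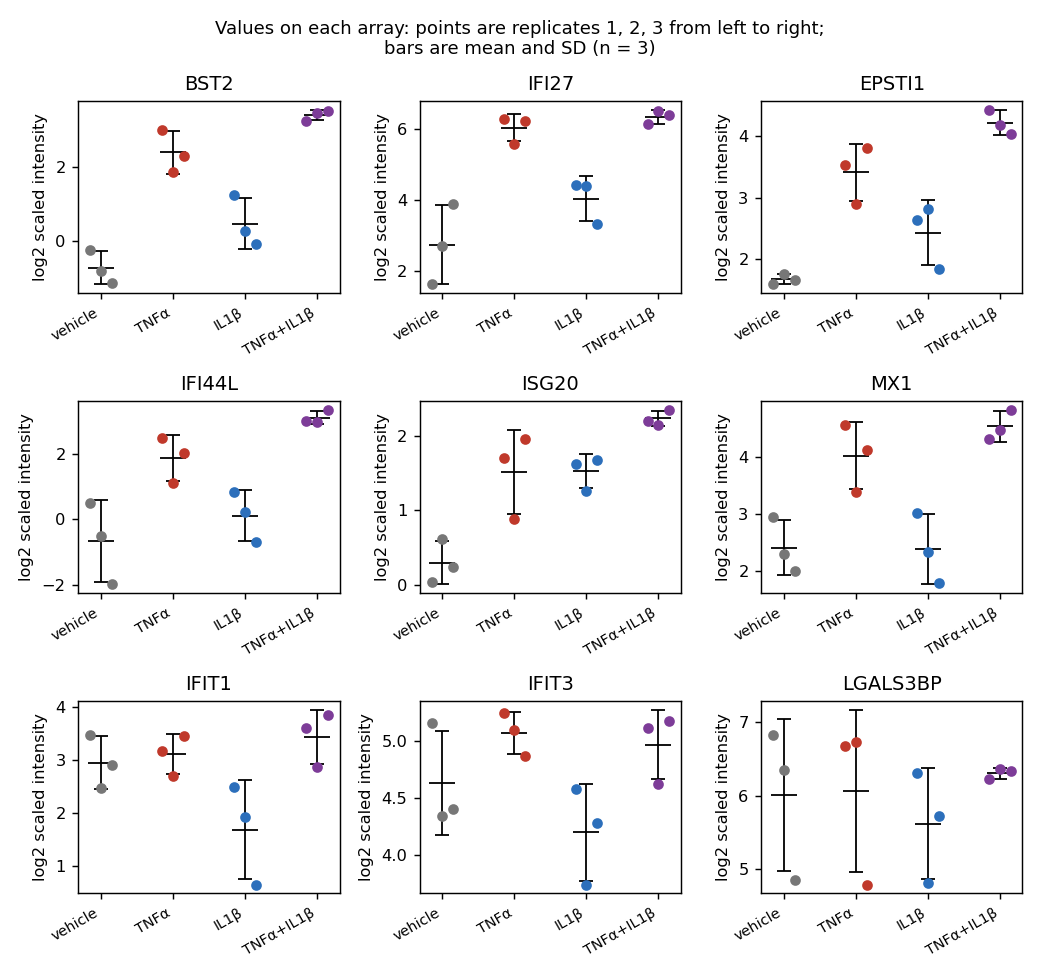
Log2 scaled intensity on each array for 9 genes, by treatment; points are replicates 1, 2 and 3 from left to right, and bars are the mean and SD of 3 arrays. BST2, IFI27, IFI44L and MX1 lie highest on the TNFα and TNFα+IL1β arrays, ISG20 is near equal with either cytokine, IFIT1 is lowest with IL1β, and LGALS3BP is low on 1 array each of vehicle, TNFα and IL1β.

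With TNFα by itself, BST2 was the 1 gene called (all genes 0.0663% higher and 0.011% lower), and 18 genes had an unadjusted limma p under 0.05, all higher (all genes 6.61% in either direction). The TNFα arrays lay wholly above vehicle for 15 genes (all genes 4.26%): the 9 named for the main effect, and OAS1, OASL, HERC5, ISG20, PARP9 and IFI44. The median change was 0.48 against −0.02 over all genes. With IL1β by itself no gene was called (all genes 0.011% higher and 0% lower), and the limma model gave 4 genes higher and 2 lower at an unadjusted p under 0.05 (all genes 8.14%). BST2, ISG20 and EPSTI1 lay wholly above vehicle (all genes 2.76%). The median change was −0.06 against −0.15 over all genes, and 0.11 against −0.02 after quantile normalization.

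With both cytokines, 5 genes rose, BST2, ISG20, IFI27, IFI44L and EPSTI1 (all genes 0.287% higher), and none fell (0.0608%). The arrays lay wholly above vehicle for 19 genes (all genes 6.99%), and 15 of 39 exceeded 1 on the log2 scale (all genes 3.6%). The median change was 0.49 against −0.10 over all genes, and in 26 of the 39 genes the interaction of the cytokines was above 0 (66.7%, against 56.9% of all genes). Of 5 epithelial markers, KRT18 was called lower with both cytokines (mean 1.92 against 3.50 in vehicle, limma adjusted p = 0.0447). KRT8, MUC1 and EPCAM averaged 0.23, 1.63 and −1.71 with both, against 1.60, 2.34 and −0.84 in vehicle. KRT7 went the other way (0.27 against 0.11), and none of these other markers was called. The summed intensity of the 5 epithelial markers, KRT18 among them, was 8.72 to 10.1 with both and 20.3 to 23.9 in vehicle. That of 6 leukocyte markers was 10.9 to 12.9 against 9.1 to 11.8. In the TNFα arrays the epithelial sum was 15 to 19.4 and in the IL1β arrays 12.5 to 13.7, and the part of these markers in the antiviral values was not tested. In RNA from whole cultures, fewer cells of a type and less RNA per cell cannot be told apart.

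Within each passage most of the genes were higher with TNFα. At passage 13, 26 of the 39 genes were higher with TNFα than with vehicle (all genes 46.8%), at passage 15 it was 32 (51.8%) and at passage 28 it was 33 (45.7%). TNFα exceeded IL1β in 36 genes (62.9%), 34 (54.5%) and 33 (67.8%) at these passages, with median differences of 0.61, 0.72 and 0.47. IL1β exceeded vehicle in 18 (41.8%), 22 (47.6%) and 19 genes (30.6%). With the passage as a block the limma fit called 4 genes for both cytokines (BST2, HERC6, IFI44 and EPSTI1). For the main effect of TNFα it called 3 (BST2, IFIH1 and IFI44). The shares of all genes called in this fit are not given here, so these counts cannot be compared with all genes.

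Upstream of these genes, a list of 38 interferons, receptors, signalling proteins and sensors was examined, of which 34 had a single-gene probe and the other 4 were not analysed here. None was called in any of the 7 comparisons, where the shares of all genes called higher were 0.127% for the main effect of TNFα and 0.287% for both cytokines. The median main effect of TNFα over the 34 was 0.12 against 0.02 over all genes, and that of the change with both 0.07 against −0.10. IFNB1, the interferon-β gene, read 0.56, 1.23 and 0.56 in vehicle, 0.49, 0.50 and 0.33 with TNFα, 0.61, 0.28 and 0.91 with IL1β, and 0.48, 0.28 and 0.57 with both. Its TNFα arrays lay wholly below vehicle, as for 5.13% of all genes, and its IL1β and TNFα+IL1β arrays overlapped vehicle. The main effect of TNFα was −0.25 ± 0.17 (limma adjusted p = 0.813).

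IFNAR2, a chain of the type I interferon receptor, read 2.23, 2.16 and 1.79 in vehicle, 3.45, 2.81 and 3.61 with TNFα, 2.41, 2.47 and 2.41 with IL1β, and 3.29, 3.06 and 3.27 with both. It had the lowest adjusted p of the list (main effect of TNFα 1.00 ± 0.16, limma adjusted p = 0.0761), and no array with TNFα overlapped one without it. IRF7, which amplifies interferon production and is itself induced by interferon, read 2.48, 2.23 and 1.49 in vehicle, 3.95, 3.01 and 3.15 with TNFα, 2.87, 2.02 and 2.76 with IL1β, and 3.82, 3.65 and 4.02 with both. Its main effect was 1.29 ± 0.25 (limma adjusted p = 0.136), again without overlap. IRF9, the DNA-binding subunit of the ISRE complex, had 0.45 ± 0.15, IRF1 0.30 ± 0.24 and RIGI, the RIG-I sensor, 0.68 ± 0.24, none of them called.

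Effects were set side by side for the ISRE core. The 25 genes with an ISRE core had a median main effect of TNFα of 0.61 (range −0.30 to 3.00), and the 7 without it, OAS1, HERC6, SAMD9L, SP110, IFI16, IFI35 and XAF1, had 0.67 (range −0.13 to 1.62). All 3 genes called for the main effect, BST2, IFI27 and EPSTI1, held the core joined to a gamma-activated site. Their main effects of TNFα were 3.00, 2.81 and 1.76. MX1 (1.88) and IFITM1 (0.72) held it too and were not called. This joined form was looked for after the data had been seen, so these effects cannot test it. OASL, IFIT2, MX2, USP18, OAS2, DHX58 and TRIM22 had no entry in the table.

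**Figure D4:**
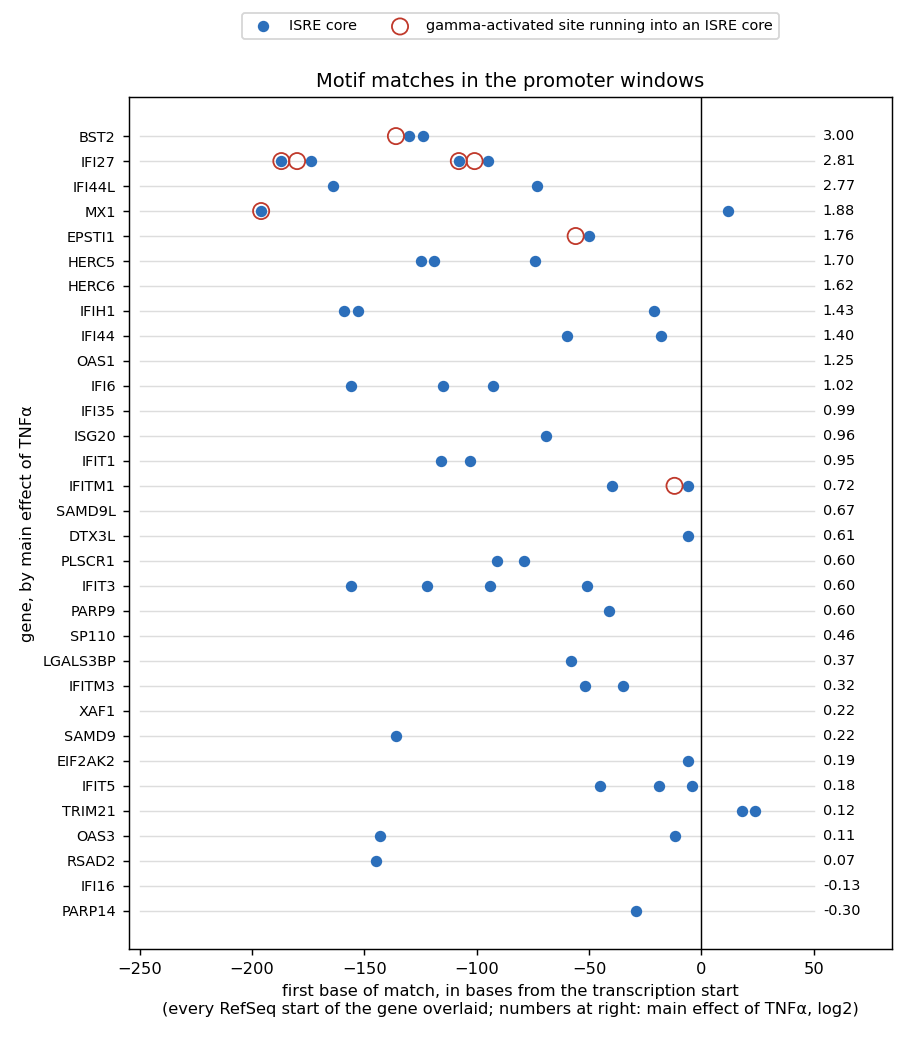
First base of each motif match, in bases from the transcription start, for the 32 genes with a promoter window, ordered by the main effect of TNFα (log2, at right); all RefSeq starts of a gene are overlaid. Blue points are ISRE cores and open red circles are gamma-activated sites joined to an ISRE core, which stand in BST2, IFI27, MX1, EPSTI1 and IFITM1, while HERC6, OAS1 and IFI35 hold neither.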

How the data were processed

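The deposited values are intensities from single-colour arrays, 1 slide per sample per the labels. The authors' image software and normalization were not given in the sources used here. Scaling of each array to its median before deposit was inferred, since every array's median log2 value lay within 0.0948 of 0. The code −9999 (0.716% of values) and values at or below 0 (1.1%) were set to missing before log2. Of 54359 probes, 53671 had at least 2 values in every group and were tested; 23472 had 1 gene in the platform table, and 23434 took their symbol by Entrez identifier. Each gene was represented by its brightest single-gene probe, by mean over the arrays. Group means of 12 arrays were fitted with limma 3.58.1 in R 4.3.3 (8 residual degrees of freedom, two-sided), and the procedure was tested on simulated data. An exact test of 3 arrays against 3 cannot give p below 0.1. P-values measure the spread between passages of 1 line.

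The members, lists and tests were chosen with earlier results of these data known. Genes given by array were those called in any comparison and, in each role group, the gene with the lowest p for either main effect; IFIT1, LGALS3BP and the pathway genes given by array were added after their values were seen. Replicate numbers mark the same passages in the labels; residuals of the 18 same-passage array pairs correlated at 0.00715 on average (−0.196 to 0.31). Alternatives were quantile normalization, an offset before the log, removal of dim probes, another variance prior, a passage block, 1 probe per gene, the compared groups only, each array left out, and, chosen after seeing the data, 3 arrays left out. Promoters are RefSeq's, matched by symbol for 32 genes.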

Additional observations from a re-analysis of the deposited data

How the results depend on the processing

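As reported, limma called 1 gene for TNFα, 5 for both cytokines and 3 for the main effect of TNFα. For the same comparisons these counts were 1, 8 and 5 with quantile normalization, 2, 9 and 9 with an offset of 0.104 before the log, 4, 11 and 9 without dim probes, 4, 9 and 9 with a trended and robust variance prior, and 2, 9 and 9 with 1 probe per gene. The 9 genes of the last column were BST2, MX1, HERC6, IFIH1, IFI27, IFI44, IFI44L, IFI35 and EPSTI1 in each of those 4 fits. With the passage as a replicate block the counts were 1, 4 and 3. In a fit of the compared groups only, TNFα gave 0 and both cytokines 2. Without the 3 arrays that lay apart, TNFα gave 0, both gave 1 (IFI27) and the main effect of TNFα 0, with 18, 19 and 21 genes at an unadjusted limma p under 0.05. Leaving out 1 array at a time gave 0 to 1, 1 to 6 and 1 to 7. IL1β, its main effect, TNFα against IL1β and the interaction called 0 genes in every alternative run. The shares of all genes in these alternative fits are not given here. The counts therefore do not show whether a fit with more calls gained them in this list or among all genes.

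Among the values of single genes followed here, 1 changed sign, the main effect of IL1β on PARP14, which was 0.13 with quantile normalization. The list's median with IL1β also changed sign, from −0.06 to 0.11 with quantile normalization (all genes −0.02), to 0.09 without vehicle replicate 1 and to 0.0054 without IL1β replicate 2. Medians of some role groups did so with quantile normalization, among them 2-5A synthesis with IL1β (−0.08 to 0.137) and PARP9, PARP14 and DTX3L with TNFα (−0.07 to 0.202). For single genes, 697 values kept direction and call, 64 lost a call and 32 gained one. The files hold no detection calls, so a lower limit for dim probes such as those of OASL and DTX3L cannot be set.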
